A study of Mus musculus with 4 samples.

Results

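The DNA repair and checkpoint genes described here are 32 named genes of 32285 in the deposited count matrices, chosen by symbol and grouped by repair pathway. All 32 were found. The data are 4 single-cell libraries of live T cells, which were sorted out of lymph nodes draining MC38-OVA tumours (MC38 is a colon carcinoma line of mice, here with ovalbumin). The libraries were KO-DOX (PD-L1 knockout restricted to dendritic cells, doxorubicin), KO-CTRL (the same knockout, control treatment), WT-DOX (control genotype, doxorubicin) and WT-CTRL (control genotype, control treatment). All 4 came from tumour-bearing mice. The labels name neither the Cre driver nor the mice pooled per library, their age or their strain. With 1 library per group, no comparison of treatment or genotype has a replicate check.

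Doxorubicin is a topoisomerase II poison that leaves DNA double-strand breaks. Broken ends are bound by the MRE11-RAD50-NBS1 complex, which activates the kinase ATM, while stretches of single-stranded DNA activate ATR and its effector kinase CHK1. Breaks are joined either directly by non-homologous end joining, which needs no template and serves resting cells, or by homologous recombination on the sister chromatid, which is available after replication. Damaged bases, mispaired bases, interstrand crosslinks and bulky lesions are removed by base excision, mismatch repair, the Fanconi anaemia pathway and nucleotide excision. Most lymphocytes in a lymph node rest, and a minority divide after meeting antigen.

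Levels are CPM, the UMIs of a gene scaled to all UMIs summed over the cells of a class in 1 library. They are compared between classes for 1 gene at a time and never between genes, since transcript length was not used. A T cell was called cycling when it held at least 4 UMIs from at least 3 of 63 S and G2/M genes, none of which is among the 32, and non-cycling when it held at most 1. The 4 libraries had 9957 to 12507 T cells, of which 5.46% (KO-DOX), 4.99% (KO-CTRL), 4.05% (WT-DOX) and 5.26% (WT-CTRL) were cycling. Between 219 and 332 cycling cells per library held only 4 to 7 UMIs of these genes and so lay near the limit. Cycling cells numbered 224 to 273 CD8 and 133 to 216 CD4 cells per library. Non-cycling cells numbered 3067 to 3931 CD8 and 1259 to 1754 CD4 cells per library. A cycling T cell held a median of 7973 to 8975 UMIs, against 2853 to 2938 in non-cycling T cells.

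The classes differed in more than the cell cycle. Malat1, a nuclear RNA, stood at 3739 to 4905 CPM in cycling T cells, against 10098 to 13362 CPM in non-cycling T cells, and the 13 mitochondrially encoded genes summed to 343 to 550.2 CPM against 742 to 1162 CPM. The 6 myeloid and dendritic markers summed to 93.2 to 139 CPM in cycling T cells, against 57.4 to 72.3 CPM in non-cycling T cells. Most of that sum was Cst3 and H2-Aa, while Csf1r was at 0 in cycling T cells of all 4 libraries. The part of these differences in the results below was not tested. Of the alternatives chosen after seeing the data, 2 bear on them, one without cells holding any UMI of those 6 markers and one with only non-cycling cells of at least 5000 UMIs. Between 175 and 271 cell barcodes were shared by any pair of libraries.

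In cycling CD8 cells, 24 of the 32 genes were higher and 5 were lower than in non-cycling CD8 cells, and in cycling CD4 cells 22 were higher and 4 were lower than in non-cycling CD4 cells. These calls are from edgeR's quasi-likelihood test with the library as a block and Benjamini-Hochberg adjustment over 10466 genes, at an adjusted p below 0.05, and all 32 genes passed the filter on low counts. The cell states differed broadly. Of all genes tested, 71.2% were called between cycling and non-cycling CD8 cells (36.1% higher, 35.1% lower) and 67.9% in CD4 cells (33.6% higher, 34.3% lower). A log2 fold of at least 1 was reached by 13 of the 32 genes in CD8 cells and by 12 in CD4 cells, against 14.0% and 12.9% of all genes tested. The median log2 fold of the 32 genes was 0.60 in CD8 cells and 0.64 in CD4 cells, against medians of -0.01 and -0.02 over all genes tested. All 4 cycling libraries lay above all 4 non-cycling ones for 21 of the 32 genes in CD8 cells (30.8% of all genes tested) and 18 in CD4 cells (31.9%), and below them for 3 (31.1%) and 2 (26.8%). Without cells holding myeloid marker UMIs, 15 genes were higher and 1 lower in CD8 cells, and 17 were higher and 2 lower in CD4 cells. That filter left 767896 to 1006778 UMIs in cycling CD8 cells per library, of 2514640 to 3313860. In cycling CD4 cells it left 369989 to 933848, of 1573744 to 2879219. Cst3 alone was found in 236 of 486 cycling T cells of WT-DOX. The part of this loss of depth in the lost calls was not tested. With deep non-cycling cells the counts were 21 higher and 3 lower in CD8 cells, and 20 higher and 1 lower in CD4 cells. The genes were unequal within pathways as well as between them. Chek1, Brca1, Fancd2 and Lig1, each of another pathway, had log2 folds above 3 in both lineages. The nucleotide excision genes Xpc and Ddb2 were lower in cycling cells of both lineages, as were Mdc1 and Atm.

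**Figure D1:**
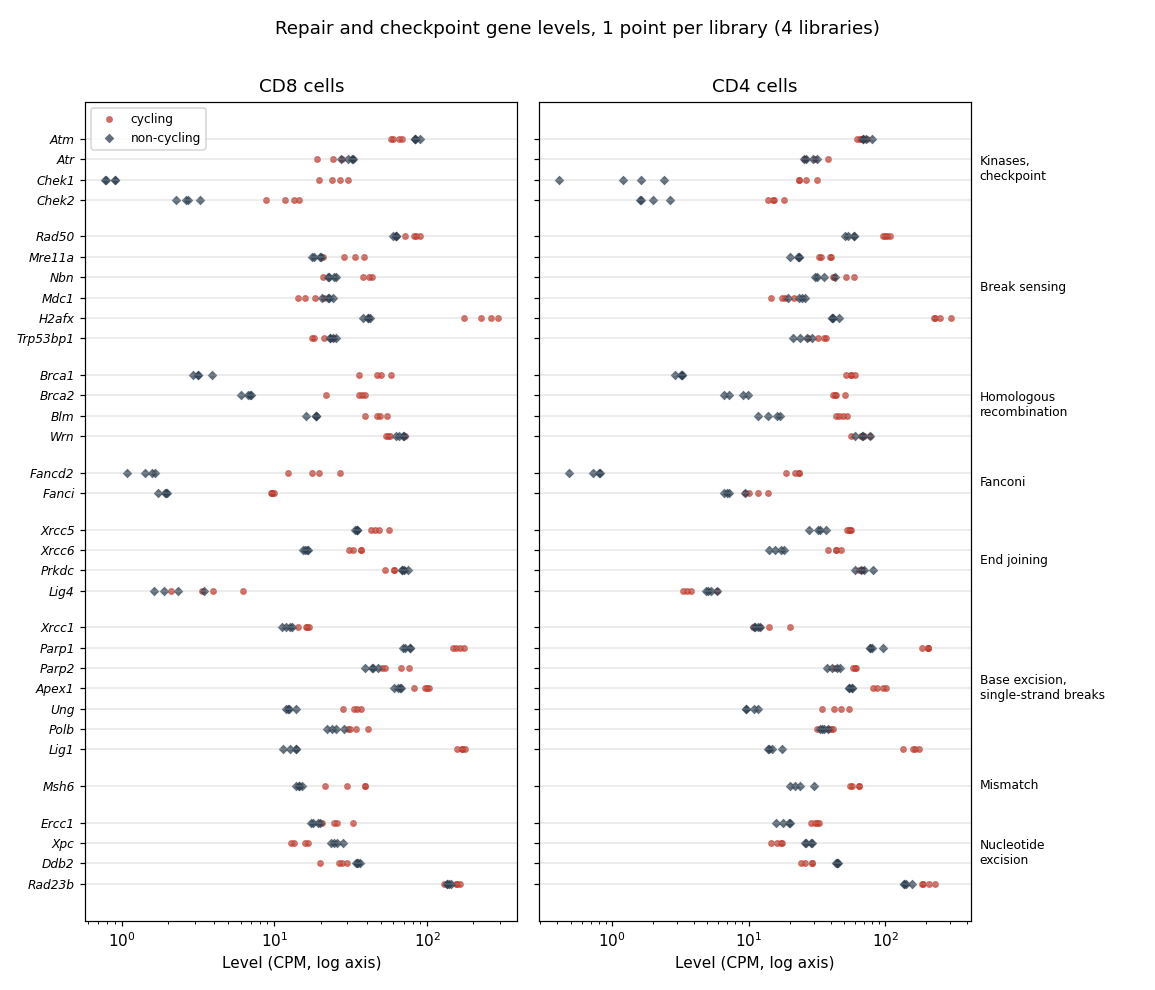
Level of each of the 32 genes in CPM on a log axis, in CD8 cells (left) and CD4 cells (right), with 1 point per library for cycling cells (circles) and non-cycling cells (diamonds), grouped by pathway. The 4 cycling points of Chek1, Brca1, Fancd2 and Lig1 lie far to the right of their 4 non-cycling points in both panels, while those of Atr and Wrn lie among them.

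Among the kinases, the effectors Chek1 and Chek2 were higher in cycling cells, and the apical kinases Atm and Atr were not. Chek1, the kinase that acts below Atr at stalled forks, had 26.9, 30.5, 19.5 and 23.9 CPM in cycling CD8 cells of KO-DOX, KO-CTRL, WT-DOX and WT-CTRL, an order of libraries kept in all lists of 4 values below, against 0.906, 0.795, 0.779 and 0.905 CPM in non-cycling CD8 cells. In CD4 cells Chek1 had 23.3, 23.3, 31.8 and 26.5 CPM in cycling cells, against 2.40, 1.64, 1.22 and 0.409 CPM in non-cycling cells. Every cycling library lay above every non-cycling one, and the non-cycling CD4 values rest on only 2 to 9 UMIs per library. The log2 fold of Chek1 was 4.88 ± 0.21 (SE) in CD8 cells and 4.15 ± 0.26 in CD4 cells (edgeR adjusted p = 2.3e-16 and 4.1e-13).

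Chek2, the effector kinase below Atm, had 13.4, 11.8, 8.75 and 14.6 CPM in cycling CD8 cells, against 3.26, 2.70, 2.62 and 2.26 CPM in non-cycling CD8 cells, and a log2 fold of 2.18 ± 0.18 (edgeR adjusted p = 1e-10). Among CD4 cells it had 18.3, 13.9, 15.3 and 15.0 CPM in cycling cells, against 1.60, 1.999, 2.67 and 1.63 CPM in non-cycling cells, with a log2 fold of 2.89 ± 0.24 (edgeR adjusted p = 9.4e-11). The libraries of the 2 states did not overlap in either lineage. Atm, the kinase activated at double-strand breaks, went the other way in CD8 cells. Its level was 59.8, 64.9, 58.1 and 67.9 CPM in cycling CD8 cells, against 82.9, 82.7, 83.0 and 89.9 CPM in non-cycling CD8 cells, groups that did not overlap, with a log2 fold of -0.42 ± 0.06 (edgeR adjusted p = 8.2e-07). In CD4 cells Atm had 62.1, 66.7, 65.4 and 74.1 CPM in cycling cells, against 72.7, 69.2, 69.3 and 79.7 CPM in non-cycling cells, overlapping groups with a log2 fold of -0.17 ± 0.07 (edgeR adjusted p = 0.03). The CD4 call of Atm was lost when any 1 library was left out, and with deep non-cycling cells alone the value was 0.077 in place of -0.17. Atr, which answers single-stranded DNA, was not called in either lineage, with log2 folds of -0.21 ± 0.12 in CD8 and 0.05 ± 0.14 in CD4 cells. Of 15 other checkpoint genes, 11 were higher in cycling cells of both lineages. In CD8 cells these were led by Wee1 (log2 fold 3.21), which restrains mitotic entry, the clamp loader subunit Rfc4 (2.78) and the fork protection gene Tipin (2.62), and in CD4 cells by Wee1 (3.46), Rfc4 (3.05) and Rfc5 (2.94). Atrip, the partner of ATR, was lower in cycling CD4 cells (-0.38).

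Of the 6 genes that sense double-strand breaks, H2afx differed by far more than the others. H2afx encodes the histone variant H2AX, which is phosphorylated around breaks. It had 174, 223, 288 and 259.8 CPM in cycling CD8 cells, against 37.7, 40.8, 42.1 and 41.0 CPM in non-cycling CD8 cells, and 305, 254, 231 and 229 CPM in cycling CD4 cells, against 40.5, 41.8, 40.8 and 45.8 CPM in non-cycling CD4 cells. No cycling library came near a non-cycling one, and the log2 folds were 2.55 ± 0.11 in CD8 and 2.53 ± 0.12 in CD4 cells (edgeR adjusted p = 8.1e-17 and 2.6e-15). The 3 genes of the MRE11 complex were also higher in cycling cells, by less. Mre11a, its nuclease, had 38.5, 28.4, 20.7 and 33.8 CPM in cycling CD8 cells, against 20.3, 17.7, 18.2 and 19.9 CPM in non-cycling CD8 cells, and 39.9, 34.0, 33.0 and 39.2 CPM in cycling CD4 cells, against 20.2, 23.1, 23.6 and 23.5 CPM in non-cycling CD4 cells. The groups did not overlap, though WT-DOX cycling CD8 cells lay close to the non-cycling ones, and the log2 folds were 0.70 ± 0.11 and 0.62 ± 0.13 in CD8 and CD4 cells (edgeR adjusted p = 3.3e-06 and 0.00012).

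Rad50, the coiled-coil subunit of the complex, had 88.8, 81.2, 71.2 and 84.6 CPM in cycling CD8 cells, against 62.1, 62.7, 62.3 and 59.6 CPM in non-cycling CD8 cells. In CD4 cells it had 100.4, 109, 104 and 95.7 CPM in cycling cells, against 58.9, 53.4, 58.8 and 51.1 CPM in non-cycling cells. All cycling libraries were above all non-cycling ones, with log2 folds of 0.42 ± 0.06 in CD8 and 0.83 ± 0.07 in CD4 cells (edgeR adjusted p = 2.3e-06 and 3.3e-10). Nbn, the regulatory subunit, had log2 folds of 0.63 ± 0.13 in CD8 and 0.37 ± 0.14 in CD4 cells (edgeR adjusted p = 0.00015 and 0.027), and its cycling and non-cycling libraries overlapped in both lineages. Mdc1, the scaffold that binds phosphorylated H2AX, was lower in cycling cells, with log2 folds of -0.38 ± 0.12 in CD8 and -0.43 ± 0.15 in CD4 cells (edgeR adjusted p = 0.008 and 0.012). Without KO-CTRL the call of Mdc1 was lost in both lineages, and without WT-CTRL in CD8 cells. Without WT-DOX the CD4 call of Nbn was lost. Of 10 other genes in this pathway, 8 were higher in cycling cells of both lineages, among them Paxip1 (1.06 in CD8 and 0.87 in CD4 cells), an adaptor at breaks, and the cohesin gene Smc1a (0.76 and 0.79). Next in size were Rbbp8 in CD8 cells (0.58), which promotes end resection, and Rif1 in CD4 cells (0.62), which opposes it, while Uimc1 was lower in cycling CD4 cells (-0.23).

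Homologous recombination genes had some of the highest folds. Brca1, needed to resect ends and load the recombinase, had 50.1, 57.9, 35.8 and 46.5 CPM in cycling CD8 cells, against 3.17, 3.18, 3.90 and 2.94 CPM in non-cycling CD8 cells. Among CD4 cells it had 56.6, 55.9, 59.7 and 51.6 CPM in cycling cells, against 3.20, 3.27, 2.92 and 3.27 CPM in non-cycling cells. The groups were far apart in both lineages, with log2 folds of 3.85 ± 0.13 in CD8 and 4.06 ± 0.16 in CD4 cells (edgeR adjusted p = 6.8e-19 and 7e-17). Brca2, which loads the recombinase on resected DNA, had 35.7, 38.9, 21.9 and 37.2 CPM in cycling CD8 cells, against 6.88, 6.76, 6.02 and 7.02 CPM in non-cycling CD8 cells. In CD4 cells it had 43.3, 51.1, 43.8 and 41.5 CPM in cycling cells, against 9.86, 9.09, 6.56 and 7.15 CPM in non-cycling cells. WT-DOX was the lowest of the cycling CD8 libraries for Brca1 and Brca2, and still above every non-cycling library. The log2 folds of Brca2 were 2.34 ± 0.12 and 2.40 ± 0.14 in CD8 and CD4 cells (edgeR adjusted p = 3.7e-15 and 6.5e-14).

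The 2 RecQ helicases in the set differed from each other. Blm, which dissolves recombination intermediates, had 47.0, 48.9, 39.0 and 54.3 CPM in cycling CD8 cells, against 18.7, 18.6, 16.01 and 18.8 CPM in non-cycling CD8 cells, and 49.4, 43.8, 52.7 and 46.3 CPM in cycling CD4 cells, against 11.7, 13.8, 17.0 and 16.1 CPM in non-cycling CD4 cells. Its log2 folds were 1.42 ± 0.10 and 1.62 ± 0.12 in CD8 and CD4 cells (edgeR adjusted p = 1.4e-12 and 1.9e-11). Wrn, the helicase and exonuclease lost in Werner syndrome, was not called, with log2 folds of -0.15 ± 0.08 in CD8 and -0.07 ± 0.09 in CD4 cells. Of 26 other recombination genes, 23 were higher in cycling cells of both lineages, 18 in each lineage by at least 1 log2 unit. The median log2 folds of all 26 were 2.54 in CD8 and 2.44 in CD4 cells. The 3 at the top in both lineages were Rad51ap1 (5.69 in CD8 and 6.72 in CD4 cells), a recombination accessory gene, and the translocase genes Rad54b (5.07 and 6.35) and Rad54l (5.32 and 5.32).

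The pair of Fanconi genes encode the 2 proteins of the ID complex, which is ubiquitinated at crosslinks. Fancd2 had 26.9, 17.5, 12.3 and 19.5 CPM in cycling CD8 cells, against 1.09, 1.59, 1.42 and 1.66 CPM in non-cycling CD8 cells. Among CD4 cells it had 23.3, 21.9, 23.5 and 19.0 CPM in cycling cells, against 0.799, 0.727, 0.486 and 0.817 CPM in non-cycling cells, where 2 to 4 UMIs per library were counted. The groups did not overlap, and the log2 folds were 3.70 ± 0.20 in CD8 and 4.82 ± 0.29 in CD4 cells (edgeR adjusted p = 1.3e-14 and 1.8e-13). Fanci had 9.46, 9.66, 9.94 and 9.61 CPM in cycling CD8 cells, against 1.72, 1.99, 1.91 and 1.96 CPM in non-cycling CD8 cells, and 11.6, 9.38, 14.0 and 10.1 CPM in cycling CD4 cells, against 6.66, 6.91, 9.48 and 7.15 CPM in non-cycling CD4 cells. The CD8 groups were far apart and the CD4 groups overlapped, with log2 folds of 2.36 ± 0.19 and 0.49 ± 0.18 (edgeR adjusted p = 3e-11 and 0.021). The CD4 call was lost under 6 alternatives, among them leaving out WT-CTRL or KO-DOX, and without cells holding myeloid marker UMIs the value was 0.055 (edgeR adjusted p = 0.93). Fanci overlaps Polg, the mitochondrial DNA polymerase gene, on the opposite strand, and whether reads were counted by strand is not given in the sources used here. Polg stood at 14.7 to 17.2 CPM in non-cycling CD8 cells and 25.3 to 29.6 CPM in non-cycling CD4 cells, an order shared with Fanci, and its part in the Fanci levels was not tested. Of 12 other Fanconi genes, 8 were higher in cycling CD8 cells, led by Fanca (2.69), Fancb (1.78) and Fancg (1.41) of the core complex, and 7 in cycling CD4 cells, led by Fanca (3.37), Fancb (1.92) and the ubiquitin-conjugating enzyme gene Ube2t (1.53). Fan1, a nuclease, was lower in cycling CD8 cells (-0.48) and Fance in cycling CD4 cells (-0.56).

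End joining was split. The 2 Ku genes, whose products cap broken ends, were higher in cycling cells. Xrcc6 (Ku70) had 36.6, 36.8, 30.6 and 32.6 CPM in cycling CD8 cells, against 16.7, 16.2, 15.8 and 15.3 CPM in non-cycling CD8 cells, and 47.7, 37.9, 43.8 and 43.7 CPM in cycling CD4 cells, against 18.1, 15.6, 17.3 and 14.1 CPM in non-cycling CD4 cells. Xrcc5 (Ku80) had 55.9, 48.6, 42.9 and 45.3 CPM in cycling CD8 cells, against 34.8, 34.7, 33.5 and 34.4 CPM in non-cycling CD8 cells, and 54.4, 55.2, 55.9 and 52.9 CPM in cycling CD4 cells, against 32.5, 27.8, 33.6 and 36.8 CPM in non-cycling CD4 cells. Neither gene's groups overlapped. The log2 folds of Xrcc6 were 1.11 ± 0.09 and 1.34 ± 0.11 and those of Xrcc5 0.51 ± 0.08 and 0.68 ± 0.10 in CD8 and CD4 cells (edgeR adjusted p = 4.9e-11, 4.8e-11, 6.8e-06 and 1.3e-06). Prkdc, the catalytic subunit of the DNA-dependent kinase that Ku recruits, was lower in cycling CD8 cells, at 60.7, 52.5, 60.4 and 70.1 CPM against 68.7, 68.4, 70.0 and 75.1 CPM in non-cycling CD8 cells, overlapping groups with a log2 fold of -0.20 ± 0.07 (edgeR adjusted p = 0.012). That call was lost without KO-CTRL, and the value was -0.015 without cells above 20000 UMIs and -0.011 without cells holding myeloid marker UMIs. The CD8 call of Xrcc5 was lost without the same cells (0.17 and 0.33). In CD4 cells the log2 fold of Prkdc was -0.11 ± 0.08 and was not called (edgeR adjusted p = 0.22). Lig4, the ligase of this pathway, had 3.36, 2.11, 3.98 and 6.20 CPM in cycling CD8 cells, from 7 to 20 UMIs per library, against 1.63, 1.91, 2.34 and 3.47 CPM in non-cycling CD8 cells. The groups overlapped, and the log2 fold was 0.74 ± 0.28 in CD8 cells and, uncalled, -0.36 ± 0.30 in CD4 cells (edgeR adjusted p = 0.021 and 0.3). The CD8 call was lost without WT-DOX, WT-CTRL or KO-DOX, and the value was 0.031 with deep non-cycling cells.

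Of 9 other end joining genes, 8 were tested, and 3 were higher in cycling cells of each lineage. Polq, the polymerase of the alternative pathway that uses short homologies (2.98 in CD8 and 2.75 in CD4 cells), and Tdp1, which frees topoisomerase I adducts (1.53 and 1.22), led in both. Dntt, the terminal transferase (-1.48 and -2.74), and Xrcc4, the partner of the ligase (-0.66 and -0.59), were lower in cycling cells of both lineages, as were Polm in CD8 cells (-0.50) and Dclre1c (Artemis) in CD4 cells (-0.46).

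In base excision and single-strand break repair, all 7 genes were higher in cycling CD8 cells and 5 of 7 were higher in cycling CD4 cells. Lig1, the ligase that also seals Okazaki fragments, had 168, 169.6, 176 and 156 CPM in cycling CD8 cells, against 11.4, 13.9, 13.9 and 12.6 CPM in non-cycling CD8 cells. Among CD4 cells it had 161, 165, 178 and 135 CPM in cycling cells, against 14.9, 14.0, 17.5 and 14.1 CPM in non-cycling cells. The groups were far apart, with log2 folds of 3.70 ± 0.07 and 3.34 ± 0.08 in CD8 and CD4 cells (edgeR adjusted p = 7.7e-24 and 1e-20). Ung, the glycosylase that removes uracil, had 33.0, 34.7, 37.0 and 28.2 CPM in cycling CD8 cells, against 13.8, 12.3, 12.5 and 11.8 CPM in non-cycling CD8 cells, and 34.4, 42.0, 54.0 and 47.2 CPM in cycling CD4 cells, against 10.9, 9.63, 11.7 and 9.60 CPM in non-cycling CD4 cells. Its log2 folds were 1.42 ± 0.11 in CD8 and 2.03 ± 0.13 in CD4 cells (edgeR adjusted p = 1.7e-11 and 1.1e-12). Parp1, the main sensor of nicks, had 174, 154, 146 and 164 CPM in cycling CD8 cells, against 76.9, 69.1, 76.4 and 71.7 CPM in non-cycling CD8 cells, and 205, 205, 205 and 185 CPM in cycling CD4 cells, against 96.7, 77.2, 77.3 and 79.7 CPM in non-cycling CD4 cells. Its groups were apart in both lineages, with log2 folds of 1.13 ± 0.06 and 1.22 ± 0.06 in CD8 and CD4 cells (edgeR adjusted p = 7.4e-15 and 1.7e-14).

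The other members of this group differed by less. The log2 folds in CD8 and CD4 cells were 0.57 ± 0.07 and 0.67 ± 0.09 for Apex1, the endonuclease at abasic sites, and 0.50 ± 0.10 and 0.32 ± 0.12 for Parp2, a second nick sensor. Xrcc1, the scaffold of single-strand break repair, and Polb, the gap-filling polymerase, were called in CD8 cells (0.38 ± 0.13 and 0.48 ± 0.11) and not in CD4 cells (0.20 ± 0.17 and 0.04 ± 0.12). In CD8 cells the calls of Apex1, Parp2 and Xrcc1 were lost without cells above 20000 UMIs (0.023, 0.19 and 0.21). Without cells holding myeloid marker UMIs, Apex1, Parp2, Xrcc1 and Polb were not called (0.19, 0.063, 0.22 and 0.40). The Xrcc1 call was also lost without WT-DOX. The CD4 call of Parp2 was lost without WT-DOX, KO-DOX or KO-CTRL, and its value was 0.10 without myeloid marker cells. Of 18 other genes in this group, 16 were tested and 8 were higher in cycling cells of each lineage. Neil3, a glycosylase (7.50 in CD8 and 7.54 in CD4 cells), the polymerase gene Pole (3.03 and 3.72) and the flap endonuclease gene Fen1 (2.06 and 2.35) led in both. Smug1, another uracil glycosylase, was lower in cycling cells of both (-0.86 and -1.06).

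Msh6, which takes part in recognising single mispairs, had 39.4, 39.2, 21.5 and 29.8 CPM in cycling CD8 cells, against 14.5, 15.1, 14.4 and 13.8 CPM in non-cycling CD8 cells. In CD4 cells it had 54.9, 63.9, 64.2 and 57.3 CPM in cycling cells, against 30.1, 23.8, 21.9 and 20.2 CPM in non-cycling cells. WT-DOX was again the lowest cycling CD8 library, and no groups overlapped. The log2 folds were 1.19 ± 0.12 and 1.28 ± 0.12 in CD8 and CD4 cells (edgeR adjusted p = 2e-09 and 9.1e-10). Of the other mismatch repair genes, Pms2 (0.22) was higher in cycling CD8 cells and Pms1 (0.54) in cycling CD4 cells. Mlh3 (-0.63 in CD8 and -0.65 in CD4 cells) and Msh3 (-0.36 and -0.23), which acts at longer loops, were lower in cycling cells of both lineages.

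In nucleotide excision, 2 of 4 genes were lower in cycling cells of both lineages and 2 were higher. Xpc, which finds distorted DNA across the genome, had 12.8, 16.6, 15.9 and 13.3 CPM in cycling CD8 cells, against 28.0, 24.6, 23.4 and 25.8 CPM in non-cycling CD8 cells, and 16.1, 14.6, 17.2 and 17.6 CPM in cycling CD4 cells, against 29.0, 26.2, 26.0 and 28.6 CPM in non-cycling CD4 cells. Ddb2 hands ultraviolet lesions to XPC. It had 19.8, 26.6, 27.8 and 29.8 CPM in cycling CD8 cells, against 34.3, 35.0, 36.5 and 34.5 CPM in non-cycling CD8 cells. In CD4 cells it had 24.4, 29.2, 29.2 and 26.0 CPM in cycling cells, against 43.7, 44.3, 45.5 and 44.3 CPM in non-cycling cells. Every cycling library was below every non-cycling one for both genes in both lineages. The log2 folds of Xpc were -0.79 ± 0.11 and -0.82 ± 0.13 and those of Ddb2 -0.42 ± 0.09 and -0.76 ± 0.10 in CD8 and CD4 cells (edgeR adjusted p = 6e-07, 4.1e-06, 0.00015 and 3.5e-07). Without cells holding myeloid marker UMIs, Xpc was no longer called, at -0.28 in CD8 and -0.34 in CD4 cells, and Ddb2 was called only in CD4 cells. Among deep non-cycling cells Ddb2 was uncalled in CD4 cells, at -0.31.

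Ercc1, the partner subunit of the nuclease that cuts beside the lesion, had 32.7, 25.6, 24.7 and 20.5 CPM in cycling CD8 cells, against 19.3, 17.2, 19.8 and 18.0 CPM in non-cycling CD8 cells, and 31.6, 32.6, 30.5 and 28.7 CPM in cycling CD4 cells, against 19.98, 15.99, 18.0 and 19.8 CPM in non-cycling CD4 cells. Its log2 folds were 0.49 ± 0.11 and 0.70 ± 0.13 in CD8 and CD4 cells (edgeR adjusted p = 0.00024 and 3.4e-05). The CD8 call was lost without cells above 20000 UMIs (0.13) and without cells holding myeloid marker UMIs (0.043). Rad23b, the partner of XPC, had log2 folds of 0.15 ± 0.06 and 0.45 ± 0.06, and in CD8 cells the value was -0.029 without cells above 20000 UMIs and the call was lost without WT-CTRL, KO-DOX or KO-CTRL. Of 17 other nucleotide excision genes, 5 were higher and 5 lower in cycling CD8 cells, and 4 were higher and 5 lower in cycling CD4 cells. The TFIIH subunit genes Gtf2h4 (1.67 in CD8 and 1.10 in CD4 cells) and Gtf2h3 (0.81 and 0.71) were highest, with Gtf2h5 in CD8 (0.68) and Ddb1 in CD4 cells (0.44). Uvssa (-1.19 and -1.22), a factor of transcription-coupled repair, and Xpa (-0.63 and -0.87), which verifies damage, were lowest, with Ercc6 in CD8 (-0.51) and Ercc5 in CD4 cells (-0.67).

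**Figure D2:**
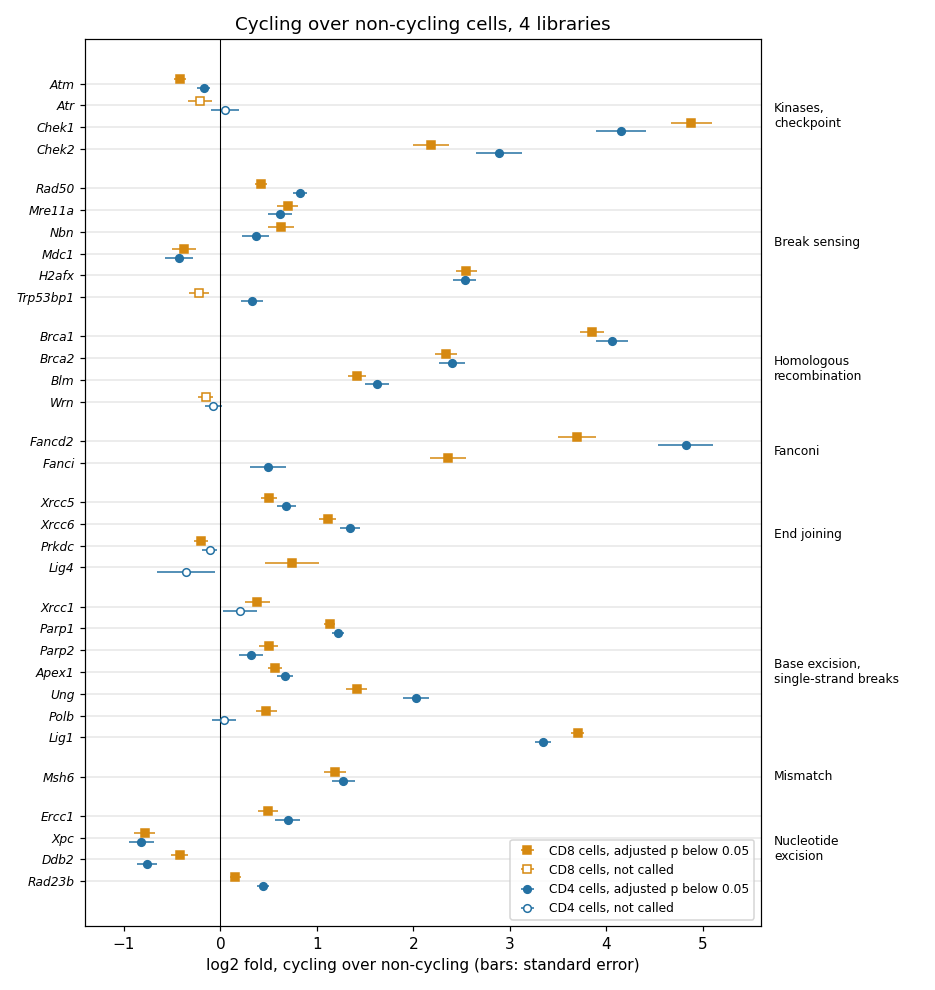
Log2 fold of each of the 32 genes in cycling over non-cycling cells, from edgeR over 4 libraries, for CD8 cells (squares) and CD4 cells (circles), with bars of 1 standard error and open symbols where the adjusted p was 0.05 or more. Chek1, Fancd2, Brca1 and Lig1 lie above 3 in both lineages, Xpc and Ddb2 lie below 0 in both, and Fanci is at 2.36 in CD8 cells and 0.49 in CD4 cells.

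Several of the genes that were higher in cycling cells share a promoter element that the choice of genes did not use. RefSeq promoters on GRCm38.p6, from 250 bases before to 50 after each start, were matched to 23 of the 32 genes. They were searched on both strands for 4 E2F words (TTTCCCGC, TTTGGCGC, TTTCGCGC and TTTGCCGC), whose matches may overlap, and for the CHR word TTTGAA. E2F words stand before many genes that are transcribed as cells enter S phase, and CHR words before many that act in mitosis. An E2F word was present in 6 of the 23 genes (26.1%), namely Chek2, Mdc1, Brca2, Xrcc6, Lig1 and Msh6, against 704 of 27025 genes with a promoter (2.60%). The CHR word was in none of the 23, against 20.2% of all genes. Of the 6, 5 were higher in cycling cells of both lineages and Mdc1 was lower in both. Of all 32 genes, 24 were higher in cycling CD8 cells and 22 in cycling CD4 cells. No E2F word was found in the promoters of Chek1, Brca1, Blm, Ung and Parp1, which were also higher in both lineages. Fancd2 and H2afx had no promoter matched. Whether the word goes with a higher level in cycling cells was not tested. The upstream stretches of the 4 genes whose word lies before the start are shown because they carry this shared element, written 5′ to 3′ on the gene's strand with the E2F word in capitals (on the opposite strand it reads as listed above for all but Mdc1).
Chek2: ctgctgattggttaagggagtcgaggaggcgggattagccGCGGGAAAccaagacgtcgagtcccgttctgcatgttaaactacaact
Mdc1: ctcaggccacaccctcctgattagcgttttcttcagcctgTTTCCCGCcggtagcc
Brca2: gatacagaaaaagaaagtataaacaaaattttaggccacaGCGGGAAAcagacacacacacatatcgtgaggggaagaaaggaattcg
Xrcc6: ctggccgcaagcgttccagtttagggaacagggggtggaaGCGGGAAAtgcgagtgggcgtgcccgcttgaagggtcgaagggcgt
These are chr5:110839791-110839878 for Chek2, chr17:35841442-35841497 for Mdc1, chr5:150522413-150522500 for Brca2 and chr15:82016283-82016368 for Xrcc6, all on the plus strand. The word begins 152, 16, 168 and 46 bases before the RefSeq start. In Lig1 and Msh6 it begins 27 and 16 bases after a start. A match is a description of letters, not a bound site.

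The size of the difference between cycling and non-cycling cells itself differed between CD8 and CD4 cells for 6 of the 32 genes, against 11.4% of all genes tested (8.8% higher, 2.65% lower; edgeR interaction, adjusted p below 0.05). The fold was larger in CD8 cells for 2 genes, Fanci by 1.87 ± 0.26 and Lig1 by 0.36 ± 0.12 on the log2 scale (edgeR adjusted p = 1.8e-05 and 0.042). The difference was below 0 for 4 genes, Ung at -0.61 ± 0.17, Trp53bp1 at -0.55 ± 0.15, Rad50 at -0.40 ± 0.10 and Rad23b at -0.29 ± 0.08 (edgeR adjusted p = 0.02, 0.021, 0.0064 and 0.025). Trp53bp1, the 53BP1 gene, whose product shields ends from resection, is the one of the 6 whose estimates differed in sign. It had 18.0, 21.1, 17.5 and 24.2 CPM in cycling CD8 cells, against 23.0, 24.0, 23.0 and 25.2 CPM in non-cycling CD8 cells, and 27.2, 32.3, 36.9 and 35.7 CPM in cycling CD4 cells, against 29.0, 23.8, 21.2 and 26.8 CPM in non-cycling CD4 cells. The groups overlapped in both lineages, and the log2 fold was -0.22 ± 0.10 in CD8 cells, which was not called, and 0.33 ± 0.11 in CD4 cells, which was (edgeR adjusted p = 0.065 and 0.013). That CD4 call was lost without WT-DOX, WT-CTRL or KO-CTRL. Rad23b had 164, 154, 128 and 157 CPM in cycling CD8 cells, against 142, 134, 134 and 137 CPM in non-cycling CD8 cells, and 209.7, 189, 186 and 229.8 CPM in cycling CD4 cells, against 156, 137, 137 and 143 CPM in non-cycling CD4 cells. Its groups overlapped in CD8 cells and not in CD4 cells. When only deep non-cycling cells were used, edgeR called 0 of the 32 interactions, 4 had an unadjusted p below 0.05, and Fanci stood at 0.19. Of the 6, Fanci was the only one called whichever library was left out. Without KO-CTRL the other 5 lost their call, and without WT-CTRL only Rad50 kept its call beside Fanci. Of the other pathway genes, Rpa3 (0.63) and Gtf2h5 (0.34) were higher in this difference, and Rmi2 (-0.99) and Rif1 (-0.37) lower.

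Resting cells of the 2 lineages also differed in some repair genes. In non-cycling CD8 cells 8 genes were higher and 6 lower than in non-cycling CD4 cells, against 36.0% of all genes tested called (17.7% higher, 18.3% lower). The share of the 32 genes called was close to that of all genes. All 4 CD8 libraries were above all 4 CD4 ones for 5 genes (8.14% of all genes) and below them for 8 (33.7%), while Blm, Xrcc5 and Prkdc overlapped. Higher in CD8 cells were Fancd2 (1.17 ± 0.39), Blm (0.45 ± 0.11), Ung (0.43 ± 0.13), Atm (0.38 ± 0.05), Apex1 (0.37 ± 0.07), Rad50 (0.32 ± 0.06), Xrcc5 (0.23 ± 0.08) and Prkdc (0.18 ± 0.06, all log2 folds). Lower were Fanci (-1.82 ± 0.18), Lig4 (-1.02 ± 0.23), Msh6 (-0.55 ± 0.11), Nbn (-0.42 ± 0.12), Polb (-0.35 ± 0.10) and Ddb2 (-0.18 ± 0.07). The edgeR adjusted p ran from 8.2e-09 for Fanci to 0.046 for Ddb2. The levels behind those not yet listed were as follows. CPM were not scaled by the TMM factors used in the fit, so CPM and fitted folds can differ. Nbn had 22.5, 24.4, 25.4 and 22.7 CPM in non-cycling CD8 cells, against 30.9, 42.7, 31.6 and 36.0 CPM in non-cycling CD4 cells, and Polb had 22.0, 23.7, 25.2 and 28.4 against 34.6, 33.6, 38.4 and 35.5 CPM. Apex1 had 67.6, 60.2, 64.5 and 65.9 CPM in non-cycling CD8 cells, against 56.7, 54.2, 54.7 and 56.8 CPM in non-cycling CD4 cells. Lig4 had 1.63, 1.91, 2.34 and 3.47 against 5.33, 5.09, 4.86 and 5.92 CPM. Prkdc had 68.7, 68.4, 70.0 and 75.1 CPM in non-cycling CD8 cells, against 69.8, 60.0, 67.1 and 81.9 CPM in non-cycling CD4 cells, so that its CPM was lower in CD8 cells of KO-DOX and WT-CTRL although the fitted fold was above 0. The Prkdc call was lost under 5 alternatives, among them leaving out WT-DOX, KO-DOX or KO-CTRL. The Fancd2 call was lost without WT-DOX, WT-CTRL or KO-CTRL, and its value was 0.43 with T cells without CD8 UMIs as the CD4 side (edgeR adjusted p = 0.22). The Ddb2 call was lost whichever library was left out, and those of Xrcc5, Nbn and Ung without KO-CTRL. Xrcc5 also lost its call without KO-DOX, and Nbn without WT-CTRL. When only non-cycling cells of at least 5000 UMIs were compared (357 to 460 CD8 and 71 to 130 CD4 cells per library), 2 genes, Atm and Blm, were called. Without KO-CTRL 9 were called. Of the other pathway genes, 13 were higher and 9 lower in CD8 cells, and Rmi2, a partner of BLM, had the highest fold (1.297), while the recombination genes Rad51c (-0.87) and Rad51b (-0.62) had the lowest.

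Cycling CD8 and CD4 cells were pooled and divided by whether the S genes or the G2/M genes of the gate held more UMIs. Lineage was not in this fit, and the part of the mix of CD8 and CD4 cells in these results was not tested. This gave 138 to 167 S-leaning and 174 to 245 G2/M-leaning cells per library. Of the 31 genes tested, 5 were higher in S-leaning cells and 4 were lower, against 15.0% of all genes tested (6.52% higher, 8.51% lower). All 4 S-leaning libraries were above all 4 G2/M-leaning ones for 8 of the genes tested, and for Lig4, which was not tested, and below them for 4. Over all genes tested these shares were 9.75% above and 7.37% below. The genes higher in S-leaning cells came from base excision, mismatch repair, end joining and the kinases, and those lower from the H2AX, Fanconi, checkpoint and helicase genes. Ung had 68.9, 77.5, 91.0 and 71.2 CPM in S-leaning cells, against 17.3, 23.0, 20.6 and 20.8 CPM in G2/M-leaning cells, a log2 fold of 1.85 ± 0.12 (edgeR adjusted p = 4.7e-08). Msh6 had 61.7, 68.9, 54.6 and 62.3 CPM in S-leaning cells, against 38.0, 46.2, 31.7 and 32.1 CPM in G2/M-leaning cells, a log2 fold of 0.70 ± 0.11 (edgeR adjusted p = 0.00043). Prkdc had 80.6, 82.7, 77.9 and 87.8 CPM in S-leaning cells, against 55.0, 48.1, 53.1 and 57.7 CPM in G2/M-leaning cells, a log2 fold of 0.58 ± 0.09 (edgeR adjusted p = 0.00051). For these 3 genes all S-leaning libraries were above all G2/M-leaning ones. Without cells holding myeloid marker UMIs the calls of Msh6 (0.57) and Prkdc (0.35) were lost.

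Atm had 80.6, 89.0, 64.1 and 90.8 CPM in S-leaning cells, against 50.5, 56.6, 55.6 and 58.8 CPM in G2/M-leaning cells (0.51 ± 0.10, edgeR adjusted p = 0.0029). Apex1 had 135, 118, 125 and 104 CPM in S-leaning cells, against 86.7, 85.1, 77.8 and 85.0 CPM in G2/M-leaning cells (0.48 ± 0.09, edgeR adjusted p = 0.0025). Neither gene's groups overlapped. The Atm call was lost with the DESeq2 Wald test (DESeq2 adjusted p = 0.065). H2afx went furthest the other way. It had 72.1, 86.1, 67.0 and 70.0 CPM in S-leaning cells, against 299, 316, 405 and 346 CPM in G2/M-leaning cells, a log2 fold of -2.23 ± 0.10 (edgeR adjusted p = 1.4e-09). A single G2/M-leaning cell of WT-DOX held 137 of that library's 983 H2afx UMIs, and without cells above 20000 UMIs the fold was -2.38. Fancd2 had 16.9, 13.8, 6.55 and 11.9 CPM in S-leaning cells, against 30.8, 23.4, 24.3 and 23.9 CPM in G2/M-leaning cells (-1.08 ± 0.18, edgeR adjusted p = 0.0011). Chek2 had 11.7, 10.3, 10.9 and 5.93 CPM in S-leaning cells, against 17.3, 14.7, 12.4 and 19.7 CPM in G2/M-leaning cells (-0.78 ± 0.23, edgeR adjusted p = 0.036). That call was lost without WT-CTRL (-0.48), KO-DOX or KO-CTRL, and with the DESeq2 Wald test (DESeq2 adjusted p = 0.39). It was also lost with gates of at least 8 UMIs from 5 genes (-0.60) or by share of UMIs (-0.59). Without cells above 20000 UMIs it was lost too (-0.86). Blm had 40.9, 41.3, 33.5 and 39.2 CPM in S-leaning cells, against 52.3, 50.8, 55.2 and 58.5 CPM in G2/M-leaning cells (-0.52 ± 0.11, edgeR adjusted p = 0.0058). The Blm call was lost under 5 alternatives, among them the 2 other gates for cycling cells of at least 8 UMIs from 5 genes (-0.33) or by share of UMIs (-0.32) and leaving out cells above 20000 UMIs (-0.20). All S-leaning libraries were below all G2/M-leaning ones for these 4 genes. Without cells holding myeloid marker UMIs, Fancd2 and Chek2 were not tested.

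Brca1, Brca2 and Lig1, which were among the genes furthest above non-cycling cells, were not called between the phases, with log2 folds of -0.20 ± 0.11, -0.19 ± 0.12 and -0.02 ± 0.07, and Chek1 stood at 0.41 ± 0.15 (edgeR adjusted p = 0.078). Of 113 other pathway genes, 105 were tested, 3 were higher in S-leaning cells and 12 were lower. Msh3 (0.50), Rif1 (0.36) and the fork gene Timeless (0.36) were higher. Among those lower were Neil3 (-2.06), the resolvase genes Gen1 (-1.93) and Eme1 (-1.62), Polq (-1.12), Tdp1 (-0.85) and the BRCA1 partner Bard1 (-0.80). S-leaning cells held a median of 8368 to 9262 UMIs and G2/M-leaning cells 9820 to 12341, and the part of that gap in these results was not tested.

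**Figure D3:**
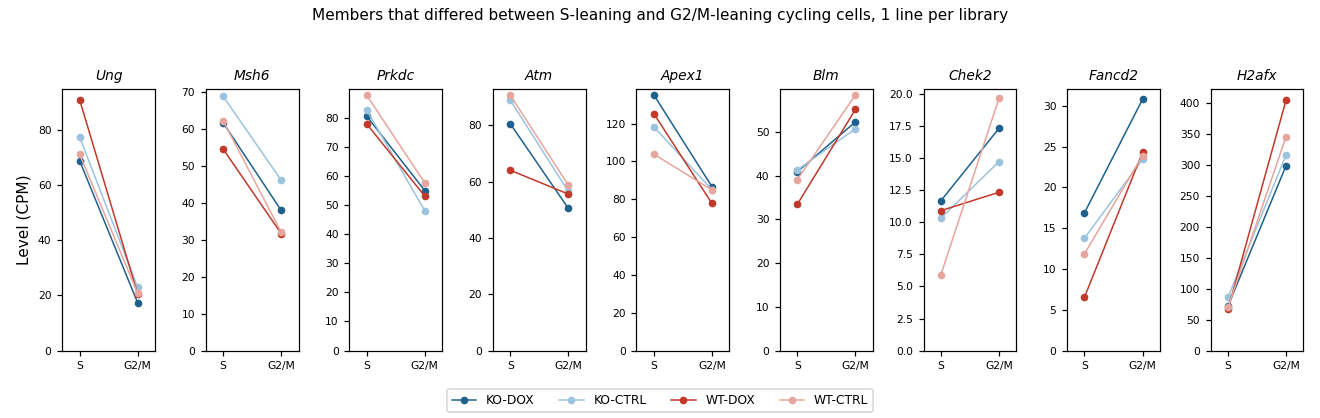
Level in CPM, on axes from 0, of the 9 genes called between S-leaning (left) and G2/M-leaning (right) cycling cells, with 1 line per library. Ung is at 68.9 to 91.0 CPM in S-leaning cells and 17.3 to 23.0 CPM in G2/M-leaning cells, and H2afx at 67.0 to 86.1 CPM and 299 to 405 CPM.

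Between libraries, the genes with levels high enough to be compared differed little in non-cycling T cells. With 1 library per group the comparisons give CPM with exact Poisson 95% intervals, which cover counting error only, and a gene counted as past the fold when it differed by at least 0.32 log2 units of CPM + 1 with intervals apart. Of the 32 genes, 25 reached 10 CPM in either library and were compared. Chek1, Chek2, Brca1, Brca2, Fancd2, Fanci and Lig4 did not. With no filter on low levels none of these 7 was past the fold in any of the 4 comparisons. Their mean levels were only 1.06 (Chek1) to 7.11 CPM (Brca2), so this does not show that they differed little. Between WT-DOX and WT-CTRL the log2 fold was -0.34 for Lig4 and -0.25 for Chek1. Between KO-DOX and KO-CTRL it was 0.16 and -0.074. For doxorubicin against control, 0 of the 25 were past the fold between KO-DOX and KO-CTRL (1.57% of all genes compared) and 0 between WT-DOX and WT-CTRL (2.84%). Their log2 folds lay between -0.27 and 0.17 in the knockout and between -0.15 and 0.20 in the control genotype, and all 25 intervals of the ratio stayed within 0.5 log2 units of 0 in both. The furthest in the knockout were Nbn, with 26.1 CPM in KO-DOX (95% interval 24.1 to 28.2) and 31.6 CPM in KO-CTRL (29.6 to 33.7), and Ung, with 12.3 CPM in KO-DOX (10.9 to 13.8) and 10.8 CPM in KO-CTRL (9.68 to 12.1). In the control genotype they were Ung, with 13.2 CPM in WT-DOX (11.9 to 14.5) and 11.4 CPM in WT-CTRL (10.2 to 12.6), and Atm, with 76.3 CPM in WT-DOX (73.2 to 79.6) and 84.9 CPM in WT-CTRL (81.6 to 88.3). Wrn differed in sign, with 72.6 CPM in KO-DOX (69.2 to 76.1) and 65.5 CPM in KO-CTRL (62.6 to 68.4), but 63.4 CPM in WT-DOX (60.5 to 66.3) and 69.5 CPM in WT-CTRL (66.5 to 72.6). That difference has no test.

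**Figure D4:**
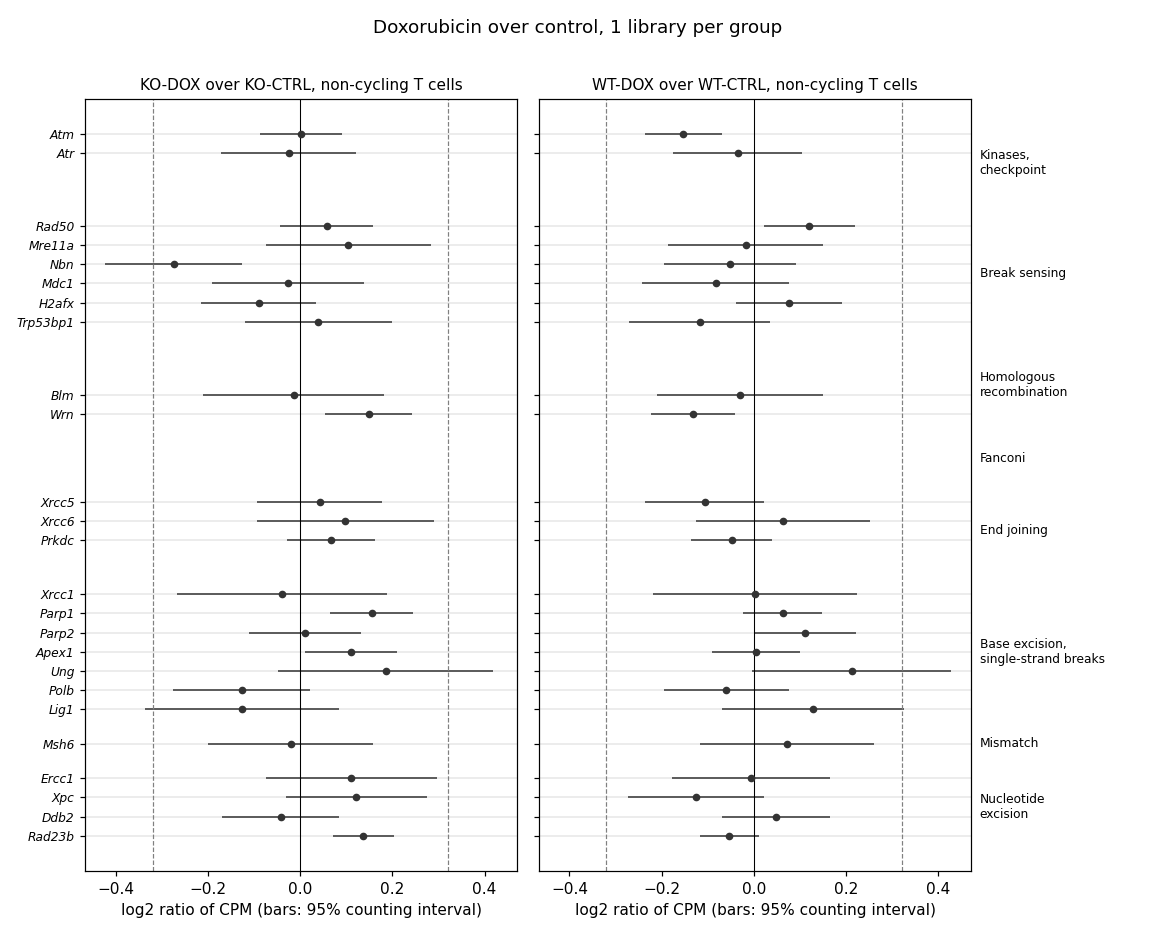
Log2 ratio of CPM in doxorubicin over control libraries for the 25 genes compared in non-cycling T cells, in the knockout (left) and the control genotype (right), with bars of the 95% counting interval and dashed lines at 0.32 log2 units. No point lies beyond the dashed lines.

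For genotype, 1 of the 25 genes was past the fold between KO-CTRL and WT-CTRL (1.87% of all genes compared) and 0 between KO-DOX and WT-DOX (2.75%). The gene was Msh6, with 19.9 CPM in KO-CTRL (18.3 to 21.5) and 15.5 CPM in WT-CTRL (14.1 to 17.0), a log2 fold of 0.34. It was not past the fold with a pseudocount of 5, in CD8 or CD4 cells alone or without cells holding myeloid marker UMIs. Under doxorubicin Msh6 had 19.6 CPM in KO-DOX (17.8 to 21.5) and 16.3 CPM in WT-DOX (14.9 to 17.8). The other log2 folds lay between -0.16 and 0.17 for KO-CTRL over WT-CTRL and between -0.16 and 0.19 for KO-DOX over WT-DOX. Of the 113 other pathway genes listed, whether or not they reached 10 CPM, 5 were past the fold. All 5 were lower in WT-DOX than in WT-CTRL, where 2.84% of all genes compared were past the fold in either direction. That comparison has 1 library per group and no test. Cetn2 (centrin-2, an XPC partner) had 38.8 CPM in WT-DOX and 53.3 CPM in WT-CTRL, Msh3 42.5 and 56.8 CPM, Mbd4, a glycosylase gene, 9.21 and 12.4 CPM, Rfc3 11.7 and 15.4 CPM, and Ube2t 13.6 and 17.5 CPM. In non-cycling CD4 cells alone, Wrn (77.0 CPM in KO-DOX and 60.5 CPM in KO-CTRL) and Parp1 (96.7 and 77.2 CPM) were past the fold upwards and Nbn (30.9 and 42.7 CPM) downwards, against 2.79% of all genes compared. Prkdc had 60.0 CPM in KO-CTRL and 81.9 CPM in WT-CTRL in the same cells (1.8% of all genes).

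In cycling T cells 31 of the 32 genes were compared, and few were past the fold. Between WT-DOX and WT-CTRL this was Parp2, with 64.7 CPM in WT-DOX (58.0 to 71.9) and 49.9 CPM in WT-CTRL (44.9 to 55.3), against 5.48% of all genes. Between KO-DOX and WT-DOX these were Mre11a, with 40.9 CPM in KO-DOX (36.1 to 46.1) and 27.4 CPM in WT-DOX (23.1 to 32.2), and Fancd2, with 22.9 CPM in KO-DOX (19.4 to 26.9) and 15.4 CPM in WT-DOX (12.2 to 19.1), against 5.92% of all genes. None was past the fold between KO-DOX and KO-CTRL (2.76% of all genes) or KO-CTRL and WT-CTRL (4.16%). WT-DOX was the lowest of the 4 libraries for 19 of the 32 genes in cycling CD8 cells, against 31.8% of all genes tested, and the highest for 14 in cycling CD4 cells, against 30.7%. With a gate of at least 8 UMIs from at least 5 genes it was the lowest for 16 in CD8 cells (33.2% of all genes). By that gate it was the highest for 17 in CD4 cells (29.2%). The cycling CD8 cells of WT-DOX also had the lowest Mki67, a proliferation marker used in the gate, at 231 CPM, against 343 CPM in KO-DOX, 374 CPM in KO-CTRL and 388 CPM in WT-CTRL. In cycling CD4 cells Mki67 stood at 505 CPM in WT-DOX, against 629 CPM in KO-DOX, 502 CPM in KO-CTRL and 504 CPM in WT-CTRL. The part of gate composition in these orders was not tested.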

How the data were processed

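The 4 droplet libraries of sorted T cells (SeekOne DD 5′ chemistry, per the labels) were deposited by the authors as UMI counts per gene and barcode on mm10, per the submitters' processing notes; neither labels nor notes name the aligner, strand handling or cell calling. Libraries held 37754389 to 47081849 UMIs in 10372 to 12959 barcodes. Barcodes needed 300 detected genes or more, and 10% or less of UMIs from mitochondrial genes. T cells had at least 1 UMI of Cd3d, Cd3e, Cd3g or Trac and fewer than 2 of B and plasma markers, CD8 cells at least 2 of Cd8a and Cd8b1 and 0 of Cd4, and CD4 cells at least 1 of Cd4 and 0 of Cd8a and Cd8b1. No doublet caller was run, and 273 to 358 T cells per library with UMIs of both lineages entered neither. UMIs were summed per library and class and fitted with edgeR 4.0.16 (TMM, filterByExpr, quasi-likelihood, library block), with gate and lineage genes removed before Benjamini-Hochberg adjustment. Standard errors are derived values, the absolute log2 fold divided by the square root of the quasi-likelihood F statistic. The script was checked on simulated data. Positions are from GENCODE M21, and the promoters from RefSeq. Several genes overlap a gene on the opposite strand (Mre11a, Trp53bp1, Fancd2, Fanci, Xrcc6, Apex1, Lig1, Msh6, Ercc1, Ddb2, Atr and Brca2), so their counts are uncertain. The genes described in full were the up to 3 largest folds of each pathway, those called in the other comparisons and the up to 3 largest each way between libraries. The 32 genes and the lists were chosen with earlier results of these data known. Adjusted p-values rest on the spread of the class sums that is left after the library block. The 4 libraries differ in genotype and treatment. Some genes of the pathway lists are not reported here.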

Additional observations from a re-analysis of the deposited data

Results flagged for a closer look

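For 6 genes, edgeR found a difference between cycling and non-cycling cells that itself differed between CD8 and CD4 cells (interaction test), and each is given as CD8 minus CD4 on the log2 scale. Fanci stood at 1.87, with cycling above non-cycling CD8 cells by 2.36 and cycling above non-cycling CD4 cells by 0.49. Lig1 stood at 0.36, Ung at -0.61, Trp53bp1 at -0.55, Rad50 at -0.40 and Rad23b at -0.29. Fanci was called under 15 of 16 alternatives and was 0.19 with deep non-cycling cells. Its mean level was 9.67 CPM in cycling CD8 and 11.3 CPM in cycling CD4 cells. In non-cycling cells it was 1.895 CPM in CD8 and 7.55 CPM in CD4 cells. None of the alternatives changed how strands were counted, and the part of the overlapping gene Polg in these levels was not tested. Lig1 was called under 4 of 16, and Trp53bp1 under 9.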

How the results depend on the processing

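No paired analysis was possible because each combination of genotype and treatment has 1 library, which holds for the comparisons of treatment and genotype. The contrasts between cell classes were paired within libraries by the library block. Without that block the called genes numbered 28 for cycling against non-cycling CD8 cells, 25 for CD4 cells, 4 for the difference between them, 12 for CD8 against CD4 non-cycling cells and 9 for the phases. Leaving out each library in turn gave 26 to 28 called genes for cycling against non-cycling CD8 cells (29 with all 4), 22 to 23 for CD4 cells (26), 2 to 5 for the difference between them (6), 9 to 11 for CD8 against CD4 non-cycling cells (14) and 8 to 9 for S-leaning against G2/M-leaning cells (9). Without cells holding myeloid marker UMIs, which left 110 to 141 cycling CD8 and 53 to 99 cycling CD4 cells per library, the counts were 16 for CD8 cells, 3 for the difference and 4 for the phases. With non-cycling cells of at least 5000 UMIs they were 0 for the difference (edgeR, with 4 at an unadjusted p below 0.05) and 2 for CD8 against CD4 non-cycling cells, and the sign turned for Atm in CD4 cells (0.077), Ddb2 (0.17) and Lig4 (0.21) in CD8 against CD4 non-cycling cells. Rad23b turned to -0.029 in CD8 cells without cells above 20000 UMIs. Between libraries, the genes past the fold numbered 3 in KO-DOX against KO-CTRL in non-cycling CD4 cells, 1 in WT-DOX against WT-CTRL in cycling cells and 3 with the stricter cycling gate. For KO-DOX against WT-DOX there were 3 over cycling and non-cycling cells together, 2 in cycling cells and 3 with the stricter gate. For KO-CTRL against WT-CTRL there were 0 with a pseudocount of 5, in non-cycling CD8 cells, in cycling cells by either gate and without myeloid marker cells. The cause of these changes was not tested. With no filter on low levels the 4 comparisons of libraries gave 0, 0, 1 and 0 genes past the fold, as with it.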

Other observations

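Bbc3 and Cdkn1a, targets of p53 outside the repair set, are given as values only. Bbc3 (PUMA), which promotes apoptosis, had 45.5 CPM in KO-DOX (95% interval 42.8 to 48.3) and 39.9 CPM in KO-CTRL (37.7 to 42.2) in non-cycling T cells, and 54.6 CPM in WT-DOX (51.9 to 57.3) and 27.1 CPM in WT-CTRL (25.3 to 29.1). In cycling CD8 cells Bbc3 had 9.16 CPM in KO-DOX (6.18 to 13.1) and 13.6 CPM in KO-CTRL (9.90 to 18.2), and 16.7 CPM in WT-DOX (12.04 to 22.6) and 5.89 CPM in WT-CTRL (3.55 to 9.20). Cdkn1a (p21), which arrests the cycle, had 50.5 CPM in KO-DOX (40.6 to 62.0) and 17.4 CPM in KO-CTRL (12.9 to 22.9) in cycling CD4 cells, and 78.8 CPM in WT-DOX (65.5 to 93.9) and 22.9 CPM in WT-CTRL (17.1 to 30.1). In non-cycling T cells Cdkn1a had 7.78 CPM in KO-DOX (6.70 to 8.99) and 9.31 CPM in KO-CTRL (8.25 to 10.48), and 9.97 CPM in WT-DOX (8.85 to 11.2) and 9.001 CPM in WT-CTRL (7.95 to 10.2). One cycling CD4 cell of WT-DOX held 28 of the 124 Cdkn1a UMIs of that class and library. The comparisons have 1 library per group, and both genes were chosen after their values were seen.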
